A study of Mus musculus with 12 samples.

Results

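Tnfsf11 (RANKL), Tnfrsf11b (osteoprotegerin), Csf1 (M-CSF) and Tnfrsf11a (RANK) are the genes of the signal by which cells of cartilage and bone call for osteoclasts, the cells that resorb mineralised matrix. They were taken by name, through the platform annotation, as 4 of 18194 genes with a probe set, and they were represented by 10 of 45101 probe sets. Of these, 8 probe sets counted as expressed, which here means that 1 group or more averaged an intensity of 50 or above. RNA came from primary chondrocytes, the cartilage cells of the tibiae, femurs and humeri of CD1 mouse embryos at E15.5, grown as monolayers. The cultures received 100 nM dexamethasone (DEX), a synthetic glucocorticoid, or DMSO, its solvent, as vehicle. The 4 groups were DEX 6 hrs, DMSO 6 hrs, DEX 24 hrs and DMSO 24 hrs, each with 3 arrays that carry the replicate numbers 1, 2 and 4, and values are listed below in that order of replicates. All cultures, DMSO included, were changed to fresh medium with ascorbic acid and beta-glycerophosphate at the start of treatment, and the embryos carried no allele that the labels name. The methods describe 3 independent cell isolations, and which arrays came from the same isolation is given by no label other than the replicate number.

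RANKL is a ligand of the tumour necrosis factor family that stands on the surface of osteoblasts, osteocytes, hypertrophic chondrocytes and activated T cells or is shed from them, and it binds RANK on osteoclast precursors. Osteoprotegerin is a secreted decoy receptor that binds RANKL and keeps it from RANK, so the balance of the pair is often given as a ratio. M-CSF, acting on its receptor Csf1r, keeps macrophages and osteoclast precursors alive, and in the growth plate these signals bring osteoclasts to the border where cartilage is replaced by bone. Glucocorticoids are known to alter the balance of RANKL and osteoprotegerin in osteoblasts.

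The 250 bases before the annotated start of Tnfsf11, the gene with the largest fold changes among the 4, and of Csf1, which had small ones, are shown as they stand in RefSeq (GRCm38.p6), 5′ to 3′ on the strand of the gene. Capitals mark matches, on either strand, to the letters AGAACA (1 arm of the palindromic glucocorticoid response element, in which TGTTCT follows after 3 bases of any kind), to an NF-kB motif (GGG and CC with 5 bases of any kind between them) and to TATAA. The Tnfsf11 window is chr14:78308044-78308293 and that of Csf1 is chr3:107760470-107760719, both on the minus strand.
Tnfsf11: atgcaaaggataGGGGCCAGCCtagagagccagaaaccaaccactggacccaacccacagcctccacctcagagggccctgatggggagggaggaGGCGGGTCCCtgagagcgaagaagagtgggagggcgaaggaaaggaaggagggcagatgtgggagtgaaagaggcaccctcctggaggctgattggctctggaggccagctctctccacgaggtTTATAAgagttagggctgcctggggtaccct
Csf1: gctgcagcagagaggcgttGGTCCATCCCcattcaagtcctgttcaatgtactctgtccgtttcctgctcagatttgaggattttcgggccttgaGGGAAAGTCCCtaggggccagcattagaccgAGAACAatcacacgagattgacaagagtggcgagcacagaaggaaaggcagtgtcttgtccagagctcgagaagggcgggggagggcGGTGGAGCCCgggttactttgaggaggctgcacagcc
The full palindromic element was in neither window and in 0.00913% of 32851 mouse promoter windows of the same length. The paper names Tnfsf11 among genes with a putative response element, from a search of far longer upstream stretches with a different consensus. A window of 250 bases cannot show whether such an element lies further upstream. The single arm AGAACA was in the Csf1 window, where it lay 124 to 119 bases before the start, was not in that of Tnfsf11, and was in 16.1% of all windows. The NF-kB motif matched at 2 places in Tnfsf11 and at 4 in Csf1, of which 2 overlap (155 to 146 and 154 to 145 bases before the start), and 45.8% of all windows hold it. TATAA matched the Tnfsf11 window on both strands in overlapping places, 31 to 26 bases before the start, and did not match that of Csf1, while 22.8% of windows hold it. TGANTCA (AP-1, in 6.75% of windows) and the inverted repeats of CTCC and GGAGA with 0, 1 or 2 bases between them, known from genes that glucocorticoids repress (0.231%, 0.588% and 0.566% of windows), matched in neither. A match is only a run of letters.

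Before the results, 3 features of the arrays bear on every value. The 4 arrays of the third hybridization day (replicates 1 and 2 at 6 hrs, DEX and DMSO) stood apart from the other 8 along the leading axis of a principal component analysis (67.4% of the variance). On those 4 arrays the log2 gap between the 3′ and 5′ Gapdh control probe sets was 0.63 on average, against -0.29 on the others. Each hybridization day held DEX and DMSO arrays of the same replicate numbers but of a single time point, so time and day cannot be told apart, and no level is compared between 6 and 24 hrs as an effect of time. Array medians lay between 25.7 and 39.1. In all 6 pairs of same-numbered DEX and DMSO arrays, Tsc22d3, Klf15 and Fkbp5, established glucocorticoid targets, were higher with DEX, by 3.48, 4.68 and 2.20 on the log2 scale over both times. In the array files, 3 arrays at 24 hrs carry a sample type of human, whereas the labels of all samples say mouse, and the labels were followed. The files also describe the replicate 4 pair at 6 hrs as number 3. The cartilage markers Col2a1, Acan, Sox9 and the others of their list, 9 of 9, were expressed.

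Tnfsf11 and Tnfrsf11b were lower with DEX in every pair, at 28.8% to 48.5% of the vehicle level for Tnfsf11 and 33.4% to 61.0% for Tnfrsf11b, while Csf1 and Tnfrsf11a were higher in some pairs and lower in others. The plot of intensities by array shows this for the brightest expressed probe set of each gene, which represents the gene.

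**Figure D1:**
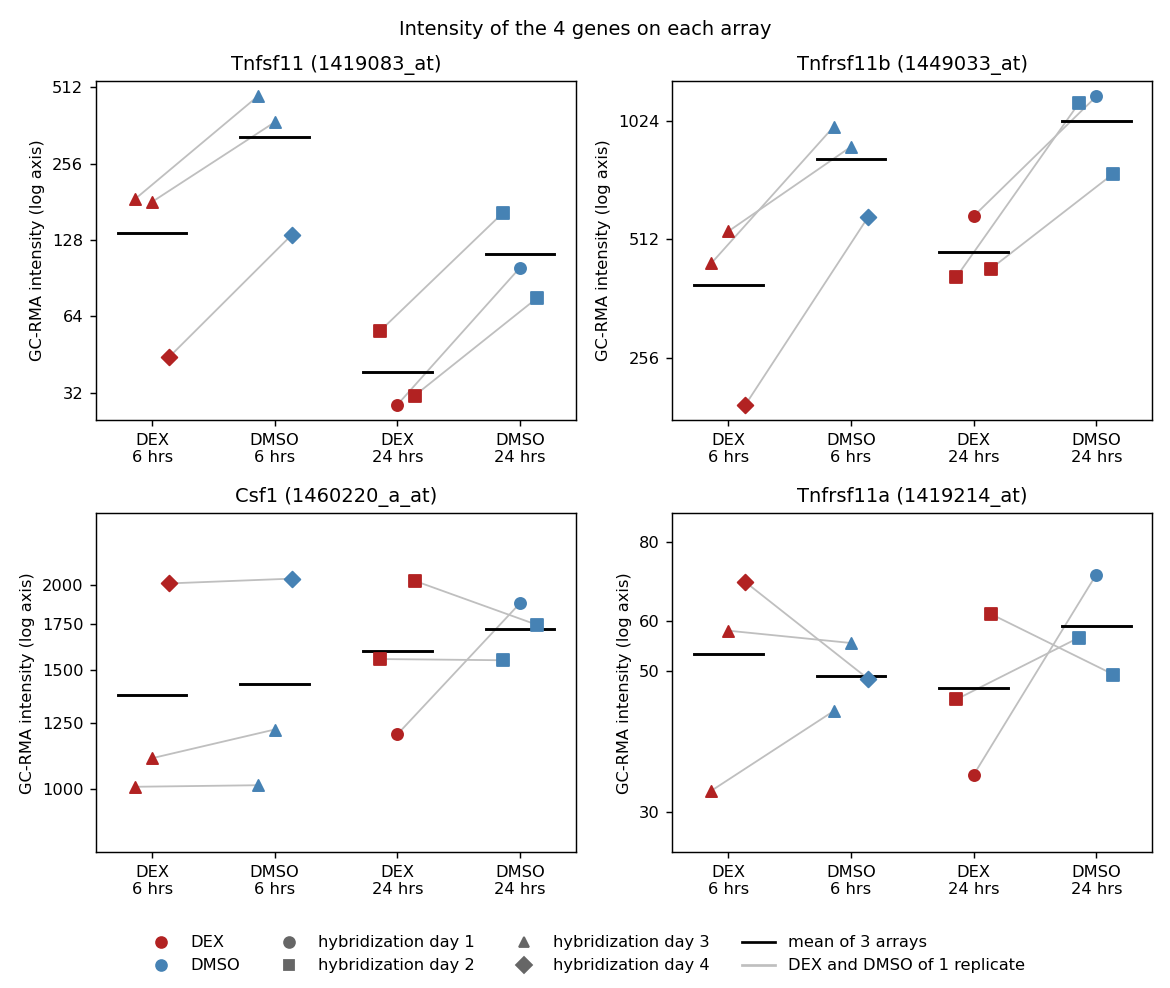
GC-RMA intensity (log axis) of the representative probe set of each gene on the 12 arrays, DEX in dark red and DMSO in blue, with thin lines joining same-numbered DEX and DMSO arrays, black bars for the mean of 3 arrays and the marker shape for the hybridization day. The lines of Tnfsf11 and Tnfrsf11b run the same way in 6 of 6 pairs, and those of Csf1 and Tnfrsf11a do not.

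Tnfsf11 lies on chromosome 14 (positions 78277446 to 78308043 in GRCm38.p6). Its probe set 1419083_at had intensities of 185, 181 and 44.3 with DEX at 6 hrs, against 471, 373 and 134 with DMSO at 6 hrs. At 24 hrs it had 56.1, 28.7 and 31.2 with DEX, against 164, 99.6 and 75.7 with DMSO. At 24 hrs every DEX array lay below every DMSO array, which held for 10.9% of all expressed probe sets, whereas at 6 hrs the DMSO array of replicate 4 lay below the DEX arrays of replicates 1 and 2. The means were 137 ± 80.2 with DEX and 326 ± 173 with DMSO at 6 hrs, and 38.7 ± 15.2 with DEX and 113 ± 45.5 with DMSO at 24 hrs (SD, n = 3 each). Within pairs the DEX array held 33.0% to 48.5% of its DMSO partner at 6 hrs (geometric mean 39.8%) and 28.8% to 41.2% at 24 hrs (34.4%). Tnfsf11 was thus lower with DEX in 6 of 6 pairs, as were 4.71% of all expressed probe sets.

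Without a block, in limma over all 20897 expressed probe sets, the log2 difference of Tnfsf11 was -1.33 (SE 0.61) at 6 hrs and -1.54 (SE 0.61) at 24 hrs, and neither passed the threshold of an adjusted p under 0.05 (adjusted p = 1.00 and 0.683). Over both times it was -1.44 (SE 0.43), with an unadjusted p of 0.0070 and an adjusted p of 0.344, and it ranked 17 of 20897 by the size of the fall. When the pairs were a block, the SE over both times was 0.11, and the difference passed at each time and over both (adjusted p = 0.0131, 0.0050 and 8.20e-04). With the hybridization day as a block it passed at 24 hrs and over both times (adjusted p = 0.0315 and 0.0055) but not at 6 hrs (adjusted p = 0.0953). Without the 4 arrays of the third day, a setting chosen after seeing the data, the difference over both times was -1.57. Only the replicate 4 pair was then left at 6 hrs, so the effect size alone is given. The contrast of the 2 log2 differences, 24 hrs minus 6 hrs, was -0.21 (SE 0.87, adjusted p = 1.00, 95% interval -2.12 to 1.70), a difference within its error. In a bulk culture, fewer cells that make a transcript and less of it per cell cannot be told apart.

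The second Tnfsf11 probe set, 1451944_a_at, was dim, with all 4 group means below 50, so it was not among the expressed ones. It read 2.5, 2.3 and 5.8 with DEX at 6 hrs, against 16.3, 20.6 and 79.9 with DMSO at 6 hrs, and 9.6, 3.8 and 16.2 with DEX at 24 hrs, against 63.5, 37.7 and 28.2 with DMSO at 24 hrs. All DEX arrays lay below all DMSO arrays at both times. This held for 0.565% of expressed probe sets, and its share among dim ones was not counted. The log2 difference over both times was -2.75 (SE 0.50). In a fit of all 45101 probe sets, with no filter, the adjusted p was 0.0891 without a block, 0.106 with the pairs and 0.0140 with the day as a block, both blocked forms chosen after seeing the data. At intensities this low the size of a fold change is uncertain.

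Tnfrsf11b lies on chromosome 15 (54250619 to 54278484). Its brighter probe set, 1449033_at, had intensities of 445, 537 and 195 with DEX at 6 hrs, against 990.4, 880.2 and 584 with DMSO at 6 hrs. At 24 hrs it had 411, 587 and 432 with DEX, against 1137, 1181 and 752 with DMSO. Every DEX array lay below every DMSO array at 6 hrs and at 24 hrs, which held for 2.96% of all expressed probe sets at 6 hrs and for 0.565% at both times. The means were 392 ± 177 with DEX and 818 ± 210.3 with DMSO at 6 hrs, and 477 ± 95.9 with DEX and 1024 ± 236 with DMSO at 24 hrs (SD, n = 3 each). In the pairs, DEX arrays held 33.4% to 61.0% of the DMSO level at 6 hrs (geometric mean 45.1%) and 36.2% to 57.3% at 24 hrs (46.9%). The decoy receptor was therefore lower with DEX in the same 6 of 6 pairs as its ligand.

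The log2 difference of Tnfrsf11b was -1.15 at 6 hrs and -1.09 at 24 hrs (SE 0.37 each, limma without a block, adjusted p = 0.752 and 0.544). Over both times it was -1.12 (SE 0.26, unadjusted p = 0.0012, adjusted p = 0.111), and it ranked 35 of 20897 by the size of the fall. With the pairs as a block the adjusted p was 0.0499 at 6 hrs, 0.0366 at 24 hrs and 0.0065 over both, and with the day as a block it was 0.0221, 0.0193 and 0.0016, so each comparison passed. Without the third hybridization day the difference over both times was -1.34. Only the replicate 4 pair was then left at 6 hrs, so the effect size alone is given. Between the time points the DEX effect differed by 0.06 (SE 0.52, adjusted p = 1.00, 95% interval -1.09 to 1.20).

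The other Tnfrsf11b probe set, 1418309_at, gave 16.3, 31.7 and 81.0 with DEX at 6 hrs, against 34.4, 30.5 and 270.0 with DMSO at 6 hrs. At 24 hrs it gave 95.4, 188 and 138 with DEX, against 309, 458 and 231 with DMSO. It was lower with DEX in 5 of 6 pairs, and the exception was replicate 2 at 6 hrs, where both arrays of the pair were near 31. Over both times its log2 difference was -1.08 (SE 0.56, adjusted p = 1.00 without a block, 0.0539 with the pairs and 0.0286 with the day as a block), close in size to that of 1449033_at. The plot of pair differences sets all 10 probe sets side by side.

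**Figure D2:**
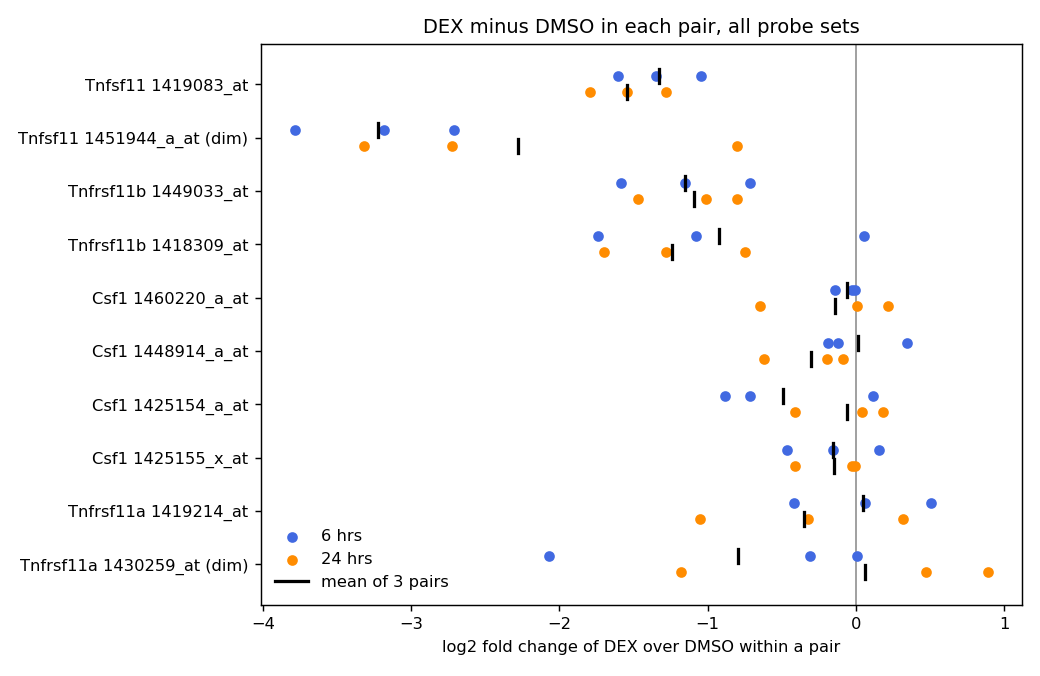
Log2 fold change of DEX over DMSO in each pair of same-numbered arrays (points, blue at 6 hrs and orange at 24 hrs) with the mean of 3 pairs (black ticks) for each of the 10 probe sets, those marked dim having group means below 50 throughout. All points of 1419083_at, 1451944_a_at and 1449033_at are left of 0, and the points of Csf1 and Tnfrsf11a lie on both sides of it.

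Csf1 lies on chromosome 3 (107741048 to 107760469) and encodes M-CSF, the growth factor of the macrophage lineage. Its probe set 1460220_a_at had intensities of 1006, 1109 and 2013 with DEX at 6 hrs, against 1012, 1223 and 2046 with DMSO at 6 hrs, and 1555, 1203 and 2031 with DEX at 24 hrs, against 1549, 1882 and 1747 with DMSO at 24 hrs. The groups overlapped at both times, and the arrays of replicate 4 at 6 hrs were the highest of their groups with either treatment. DEX and DMSO arrays of a pair at 6 hrs differed by at most 0.14 log2. The log2 difference was -0.06 at 6 hrs and -0.14 at 24 hrs, and over both times it was -0.10 (SE 0.23, adjusted p = 1.00), with a 95% interval over both times of -0.60 to 0.41 without a block and of -0.38 to 0.18 with the day as a block. The 3 other Csf1 probe sets, 1448914_a_at, 1425154_a_at and 1425155_x_at, had differences over both times of -0.14, -0.28 and -0.15, and none passed without a block or with either block at any time. The interval of 1425154_a_at over both times was wide, at -1.25 to 0.69 without a block. Its difference at 6 hrs was -0.49 on all arrays (adjusted p = 1.00). Without the third hybridization day, which leaves only the replicate 4 pair at 6 hrs, it was -0.72.

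Tnfrsf11a, the gene of the receptor RANK on osteoclast precursors, lies on chromosome 1 (105780673 to 105849444). Probe set 1419214_at was near the expression minimum, at 32.4, 58.0 and 69.2 with DEX at 6 hrs, against 43.3, 55.4 and 48.7 with DMSO at 6 hrs. At 24 hrs it was at 45.2, 34.3 and 61.6 with DEX, against 56.6, 71.1 and 49.4 with DMSO. DEX was lower in 3 of 6 pairs and higher in the other 3, from 48.3% of the DMSO level (replicate 2 at 24 hrs) to 142% (replicate 4 at 6 hrs), and the log2 difference over both times was -0.15 (SE 0.21, adjusted p = 1.00). Its dim probe set 1430259_at lay between 5.0 and 24.7 on all arrays.

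Counted over the 8 expressed probe sets of the 4 genes, 0 passed without a block in any of the comparisons (6 hrs, 24 hrs and both combined), where limma called 0.225%, 0.287% and 0.747% of all expressed probe sets. At an unadjusted p under 0.05 there were 1, 2 and 2 of the 8, beside 3.66%, 6.24% and 5.65% of all. With the pairs as a block 2 of 8 passed at each of these, 1419083_at of Tnfsf11 and 1449033_at of Tnfrsf11b, both lower with DEX, beside 0.278%, 0.703% and 1.29% of all expressed probe sets called lower. With the day as a block there were 1, 2 and 3 of 8, again all lower, beside 0.278%, 0.694% and 1.07% of all called lower. Over the 8 the median log2 difference was -0.32, -0.33 and -0.21.

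The intensity ratio of Tnfsf11 to Tnfrsf11b (1419083_at over 1449033_at) was taken on each array. It is a ratio of the brightness of 2 different probe sets and not of transcript numbers, so only its differences between arrays can be read. With DEX at 6 hrs it was 0.417, 0.337 and 0.227, against 0.476, 0.424 and 0.230 with DMSO at 6 hrs. With DEX at 24 hrs it was 0.136, 0.0489 and 0.0722, against 0.144, 0.0843 and 0.101 with DMSO at 24 hrs. The ratio was lower with DEX in 6 of 6 pairs, but by a log2 difference of no more than 0.02 in replicate 4 at 6 hrs and of 0.79 at most, in replicate 2 at 24 hrs, and the groups overlapped at both times. Means were 0.327 ± 0.0951 with DEX and 0.376 ± 0.129 with DMSO at 6 hrs, and 0.0858 ± 0.0453 with DEX and 0.110 ± 0.0308 with DMSO at 24 hrs (SD, n = 3 each). The mean log2 difference was -0.18 ± 0.16 at 6 hrs, -0.45 ± 0.35 at 24 hrs (SD, n = 3 pairs each) and -0.31 ± 0.29 over both (SD, n = 6), which is small beside the differences of the ligand and of the decoy themselves. No test was made, since the ratio is built from the chosen genes.

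**Figure D3:**
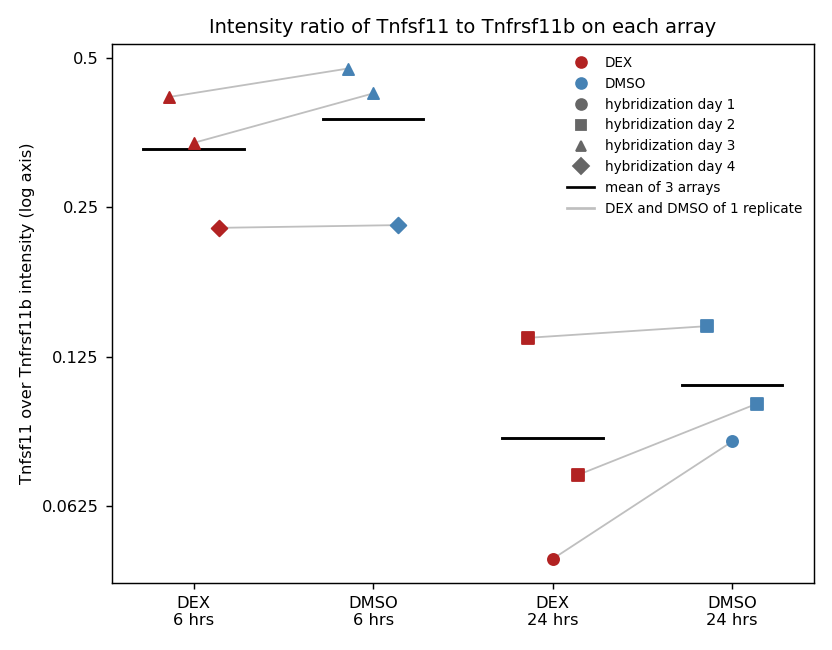
Intensity of Tnfsf11 (1419083_at) divided by that of Tnfrsf11b (1449033_at) on each of the 12 arrays (log axis), DEX in red and DMSO in blue, with lines joining same-numbered arrays and black bars for the means of 3 arrays. Each line rises towards DMSO, the groups overlap within a time, and the arrays at 6 hrs (0.227 to 0.476) lie above those at 24 hrs (0.0489 to 0.144).

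The size of this ratio difference depended on the probe sets. With 1418309_at as the Tnfrsf11b value the mean over both times was -0.35, and the ratio was lower in 4 of 6 pairs. With the dim Tnfsf11 probe set 1451944_a_at it was -1.63 over 1449033_at (5 of 6 pairs) and -1.67 over 1418309_at (6 of 6 pairs). For 1419083_at over 1449033_at the arrays at 6 hrs all lay above those at 24 hrs, a gap that cannot be told apart from the hybridization days. That order did not hold for 1451944_a_at over 1449033_at, where DMSO arrays of replicates 1 and 2 at 6 hrs (0.0165 and 0.0234) lay below all DMSO arrays at 24 hrs (0.0319 to 0.0558).

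The probe sets of a gene also differed among themselves by hybridization day. The log2 gap between 1449033_at and 1418309_at of Tnfrsf11b was 4.64 on the 4 arrays of the third day (4.08 to 4.85), against 1.59 on the other 8 (1.11 to 2.11). For Tnfsf11 the gap between 1419083_at and 1451944_a_at was 5.39 on the third day and 1.79 on the others, and for Csf1 that between 1460220_a_at and 1425154_a_at was 3.22 and 2.37. For Tnfrsf11a, between 1419214_at and 1430259_at, it was 1.39 on the third day and 2.07 on the others. The first 3 of these gaps were wider where the 3′ to 5′ Gapdh control was positive, on the third day (0.49 to 0.74), than where it was negative, on the others (-0.33 to -0.22), and its part in the levels of the 4 genes was not tested. For Csf1 this depended on the partner, since 1460220_a_at and 1425155_x_at showed no wider gap on the third day. With DMSO at 6 hrs 1460220_a_at read 1012, 1223 and 2046. Beside it 1425155_x_at read 129, 162 and 299, and 1425154_a_at read 126, 140 and 586. The third day holds both treatments, and 1419083_at of Tnfsf11 and 1449033_at of Tnfrsf11b were lower with DEX within it and outside it. On that day 1418309_at of Tnfrsf11b was at 47.3% of the DMSO level in replicate 1 and at 104% in replicate 2.

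**Figure D4:**
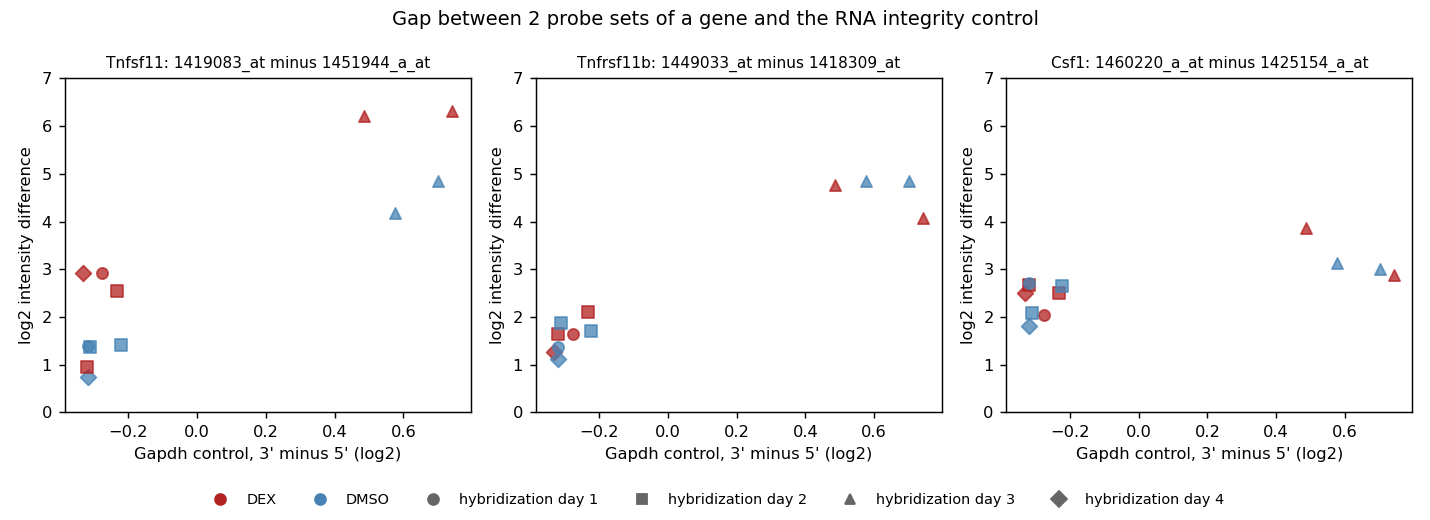
Log2 intensity difference between 2 probe sets of Tnfsf11, Tnfrsf11b and Csf1 against the log2 difference of the 3′ and 5′ Gapdh control probe sets on each array, DEX in red and DMSO in blue, with marker shapes for the hybridization day. The 4 arrays of the third day lie to the right, with Tnfrsf11b gaps of 4.08 to 4.85, and the 8 others to the left, with gaps of 1.11 to 2.11.

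Other signals that act on osteoclast formation, secreted or held on the cell surface, were read from a list of 30. Of these, 29 had a probe set of their own and 19 were expressed. Among the 19, 3 fell and 0 rose over both times without a block, beside 0.217% of all 11053 expressed genes called lower and 0.706% called higher. The list's median log2 difference was -0.27, beside -0.02 for all expressed genes. Il11, a cytokine that acts through gp130, averaged 40.0 ± 24.6 with DEX and 308 ± 64.9 with DMSO at 6 hrs, and 25.96 ± 9.08 with DEX and 97.4 ± 39.5 with DMSO at 24 hrs (SD, n = 3 each), a log2 difference of -2.49 over both times (limma adjusted p = 0.0031). Il6, which signals through gp130 as well, fell by 2.39 on the log2 scale, and Ccl2, a chemokine for monocytes, fell by 1.75 (limma adjusted p = 0.0078 each). Il6 averaged 8.2 with DEX and 46.4 with DMSO at 6 hrs, and 11.4 with DEX and 52.9 with DMSO at 24 hrs. It thus counted as expressed only through DMSO 24 hrs, where it was high, and the size of its fall is uncertain. Il11 likewise counted as expressed only through the DMSO groups, where it was high, as both of its DEX means lay below 50. The size of its fall is uncertain too. Il11, Il6 and Ccl2 were each lower with DEX in 6 of 6 pairs. The gp130 cytokine Lif, at -0.98, missed the threshold (adjusted p = 0.0527) and passed with either block. With the pairs as a block 7 of 19 fell, beside 1.47% of all expressed genes (1.20% and 6 of 19 with the day), and the 3 added to Lif were Cxcl12, which draws CXCR4-bearing precursors, and the Wnt antagonists Sfrp1 and Sfrp2.

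Among the factors reported to act on transcription of Tnfsf11 or Tnfrsf11b, 22 of 23 had a probe set of their own and 18 were expressed, and 1 of the 18 fell without a block, beside 0.217% of all expressed genes. This was Ptgs2, the inducible cyclooxygenase that makes the precursor of prostaglandin E2, at 630.1 ± 378 with DEX and 1784 ± 179 with DMSO at 6 hrs, and 140 ± 33.9 with DEX and 653 ± 233 with DMSO at 24 hrs (SD, n = 3 each). Its log2 difference over both times was -1.95 (limma adjusted p = 0.0211). Ptger4, a receptor for prostaglandin E2, was at -1.21 (adjusted p = 0.0811) and passed with either block (adjusted p = 1.11e-04 with the day and 4.70e-04 with the pairs). With the pairs as a block 4 fell (Ptgs2, Ptger4, Nr3c1, which encodes the glucocorticoid receptor, and Lef1, a Wnt effector) and 1 rose (Pth1r, the parathyroid hormone receptor), beside 1.47% of all expressed genes called lower and 2.12% called higher. Nr3c1 was at -0.42 over both times (limma adjusted p = 0.230 without a block and 0.0485 with the pairs). It passed at neither time alone. The paper, which measured Nr3c1 by qRT-PCR as well, reports no effect of DEX on it at either time. The list's median was -0.08, beside -0.02 for all expressed genes.

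On the receiving side, 38 of 41 genes of RANK and M-CSF receptor signalling had a probe set of their own and 36 were expressed in these cultures, and 0 passed without a block, with a median log2 difference of -0.11. With either block 3 fell and 2 rose, where 2.04% of all expressed genes were called higher with the day and 2.12% with the pairs, and 1.20% and 1.47% lower. The fallers were Mitf, a transcription factor of osteoclasts and other lineages (-1.18, adjusted p = 0.0568 without a block), Traf1, an adaptor of tumour necrosis factor receptors (-1.06), and Jun, an AP-1 subunit (-0.61). Traf1 averaged 24.1 with DEX and 60.5 with DMSO at 6 hrs, and 24.9 with DEX and 43.0 with DMSO at 24 hrs. It thus counted as expressed only through DMSO 6 hrs, where it was high, and the size of its fall is uncertain. The risers were Syk, a kinase (0.83), and Pik3r1, a regulatory subunit of PI3-kinase (0.83). Of 12 genes that restrain osteoclast formation, 11 had a probe set of their own and 10 were expressed. Their median log2 difference was -0.21, beside -0.02 for all expressed genes, and 0 passed without a block. With either block Dusp1, a phosphatase of MAP kinases (0.52), and Zfp36, which destabilises cytokine messages (0.57), rose. Socs3, an inhibitor of gp130 signalling (-0.51), fell with the pairs as a block and did not pass with the day (adjusted p = 0.0448 and 0.0712), beside 1.47% of all expressed genes called lower with the pairs.

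**Figure D5:**
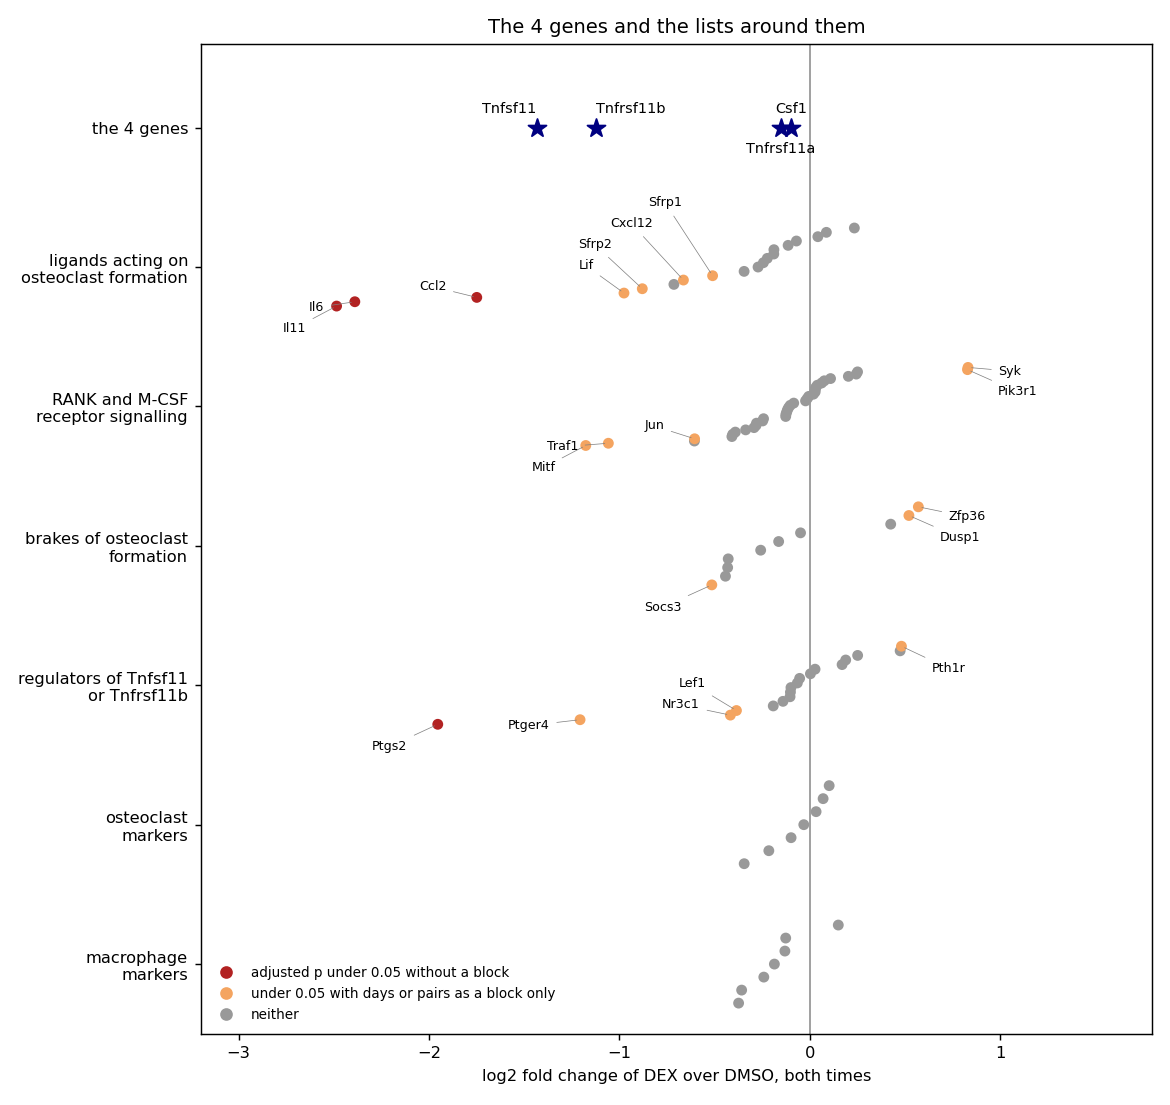
Log2 fold change of DEX over DMSO over both times for the 4 genes (blue stars) and the expressed genes of 6 lists (points), coloured by whether the adjusted p was under 0.05 without a block (red), only with days or pairs as a block (orange) or in neither (grey). The red points are Il11, Il6, Ccl2 and Ptgs2, all left of 0 with Tnfsf11 (-1.44) and Tnfrsf11b (-1.12).

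The cells that answer these signals were looked for through their markers. Of 13 osteoclast markers 12 had a probe set of their own. The 7 expressed were Acp5, Ctsk, Itgb3, Mmp9, Clcn7, Tcirg1 and Car2. Calcr, Oscar, Dcstamp, Ocstamp and Atp6v0d2 had group means below 50 throughout, so the list was split. Whether osteoclasts were present was not tested. Ctsk, the collagen-cleaving cathepsin that chondrocyte cultures can also hold, averaged 671 ± 258 with DEX and 604 ± 243 with DMSO at 6 hrs, and 352 ± 42.2 with DEX and 350.4 ± 38.1 with DMSO at 24 hrs (SD, n = 3 each). Of 16 macrophage markers 7 were expressed, among them Csf1r, the M-CSF receptor, at 149 ± 35.0 with DEX and 146 ± 57.0 with DMSO at 6 hrs, and 101 ± 17.8 with DEX and 128 ± 26.4 with DMSO at 24 hrs (SD, n = 3 each). No gene of either list passed at any time, with or without a block. The summed macrophage level was 892 to 1069 with DEX and 901 to 1347 with DMSO at 6 hrs, and 837 to 924 with DEX and 921 to 1087 with DMSO at 24 hrs, and its part in the differences of Tnfsf11 and Tnfrsf11b was not tested. For osteoclasts the summed level was 1019 to 1579 with DEX and 1024 to 1702 with DMSO at 6 hrs, and 824 to 971 with DEX and 882 to 1070 with DMSO at 24 hrs. T cells, another source of RANKL, had 5 of 6 markers with a probe set of their own and 1 expressed, with a summed level of 60.7 to 119 with DEX and 58.4 to 93.2 with DMSO at 6 hrs, and 85.6 to 107 with DEX and 75.5 to 127 with DMSO at 24 hrs. Of the cartilage, osteoblast, hypertrophic chondrocyte, fibroblast and endothelial markers 0 passed without a block. With the day as a block, over both times, Ibsp of the osteoblast list, Pth1r of the hypertrophic list and Postn of the fibroblast list rose, beside 2.04% of all expressed genes, and Ibsp did not pass with the pairs (adjusted p = 0.0562).

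Markers of osteoblasts and hypertrophic chondrocytes, cells that make RANKL themselves, also moved at 24 hrs, and 0 of them passed without a block. With the day as a block 3 of 5 expressed hypertrophic markers rose at 24 hrs, beside 1.73% of all expressed genes. They were Pth1r (0.89), Panx3, a channel protein (0.60), and Ihh, the hedgehog ligand of the growth plate (0.95), and with the pairs Pth1r and Panx3 passed. Of 5 expressed osteoblast markers 2 rose at 24 hrs with the day, Ibsp, a sialoprotein of bone (0.92), and Dmp1, a matrix protein of osteocytes (2.50). With the pairs Alpl, the alkaline phosphatase (0.64), was the 1 that passed, beside 1.69% of all expressed genes. The median log2 difference at 24 hrs was 0.60 for the hypertrophic list and 0.64 for the osteoblast list, beside -0.03 for all expressed genes. The summed hypertrophic level was 5700 to 6944 with DEX and 4073 to 6540 with DMSO at 24 hrs, and the summed osteoblast level was 6317 to 8849 with DEX and 5827 to 5997 with DMSO at 24 hrs. Their part in the differences of Tnfsf11 and Tnfrsf11b was not tested.

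The genes whose pattern was most like that of Tnfsf11 were named by Pearson's r of log2 values over the 12 arrays, after the mean of each hybridization day was taken off, among 11052 other expressed genes. They were Noct (r = 0.980), Ank (0.978), Mecom (0.969), Nr4a1 (0.967) and Hbegf (0.967). For Tnfrsf11b they were Hbegf (0.978), Il4ra (0.977), Arhgap18 (0.970), Ccn4 (0.969) and Cx3cl1 (0.961), so that Hbegf stood on both lists. Tnfsf11 and Tnfrsf11b correlated with each other at 0.944, and Tnfrsf11b ranked 22 among the genes closest to Tnfsf11. Csf1 had an r of 0.135 with Tnfsf11 and of 0.199 with Tnfrsf11b, and Tnfrsf11a of 0.197 and 0.200. All 12 arrays share the DEX and DMSO contrast within days, and the values are a description with no test. All 9 genes named were lower with DEX in 6 of 6 pairs, as were 4.71% of all expressed probe sets. They were picked for likeness to Tnfsf11 or Tnfrsf11b, which were lower in every pair, so this direction is no separate result. Of the 9, Hbegf passed without a block (-1.03, limma adjusted p = 0.0337).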

How the data were processed

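The authors hybridized RNA of each culture to a mouse expression array and scaled the scans with GC-RMA, named GCRMA in the submitters' processing notes (whose version was not given in the sources used here), and the deposited table holds linear intensity values of 45101 probe sets. Hybridization days were read from the deposited array files (other text fields, no measurement). The log2 of each intensity, with no pseudocount, was fitted with limma 3.58.1 in R 4.3.3 (1 mean per group, 12 arrays, no block) on the 20897 expressed probe sets (1 group mean or more at 50 or above), with Benjamini-Hochberg adjustment. SE is limma's moderated standard error. An array has no read depth, and the number of arrays limits precision. Same-numbered DEX and DMSO arrays deviated together from their group means (at 6 hrs r was 0.681 for replicate 1, 0.632 for replicate 2 and 0.863 for replicate 4; at 24 hrs it was 0.158, 0.301 and 0.220), so the numbers were taken as pairs within a time. They shared a hybridization day too. Whether a number marks 1 cell isolation is not shown, and p-values measure the spread between these arrays. Alternatives were the pairs or the day as a block, other filters, a pseudocount, other scalings, other probe sets, the Welch test and leaving arrays out. Leaving out the third hybridization day, and the blocks without a filter, were added after seeing the data. Without that day only the replicate 4 pair was left at 6 hrs. Fits were tested on simulated data. Tables and figures were made with Python 3.11.15 and matplotlib 3.10.9.

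Platform annotation gave 34958 probe sets 1 symbol, 932 several (unnamed here) and 9211 none (unnamed here). Named genes were the 4 genes, up to 4 genes of each list past the threshold (else up to 2 with the smallest p), the 5 genes most alike, and Tsc22d3, Klf15 and Fkbp5. List genes named only for a call with a block, and markers named with values, were chosen after their values were seen. Lists held genes by reported role. The genes, lists and tests were chosen with earlier results of these data known. Positions and promoters are RefSeq's for GRCm38.p6.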

Additional observations from a re-analysis of the deposited data

How the results depend on the processing

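For Tnfsf11 and Tnfrsf11b, DEX was lower than DMSO in each comparison under every alternative run, with log2 differences over both times of -1.71 to -1.09 for Tnfsf11 and -1.27 to -0.90 for Tnfrsf11b when 1 array was left out. The block changed calls, not sizes. With the replicate block (pairs) Tnfsf11 passed at 6 hrs (-1.33), 24 hrs (-1.54) and over both (-1.44), and with the day as a block at 24 hrs and over both only (-1.54 and -1.44). Tnfrsf11b passed with either block (-1.15, -1.09 and -1.12). Without the third hybridization day its difference over both times was -1.34, with only the replicate 4 pair left at 6 hrs. Leaving out 1 array gave -1.88 to -0.65 (6 hrs) and -1.84 to -1.23 (24 hrs) for Tnfsf11, and -1.44 to -0.71 and -1.30 to -0.98 for Tnfrsf11b, with no call.

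Differences of the DEX effect between the times had no stable sign for Tnfsf11, Tnfrsf11b and Csf1. For Tnfsf11 it was 0.061 without the third day, 0.94 with 1451944_a_at and -0.89 to 0.34 with 1 array left out. For Tnfrsf11b it was -0.021 after quantile normalization, -0.32 with 1418309_at and -0.39 to 0.35. For Csf1 it was 0.43 with 1425154_a_at, 0.0096 with 1425155_x_at and -0.38 to 0.23. For Tnfrsf11a it was -0.40 (SE 0.42) on all arrays and -0.73 to -0.18 with 1 array left out, and it turned in sign only with the dim 1430259_at (0.85). Uncalled values of Csf1 and Tnfrsf11a also turned in sign: Csf1 was 0.013 at 6 hrs with 1448914_a_at and 0.11 at 24 hrs within the second hybridization day, and ranged over -0.37 to 0.24, -0.33 to 0.047 and -0.25 to 0.047 (6 hrs, 24 hrs, both) with 1 array left out. Tnfrsf11a was -0.18 at 6 hrs within the third day, -0.79 at 6 hrs and 0.061 at 24 hrs with 1430259_at, 0.077 over both times without the third day, and ranged over -0.17 to 0.37, -0.57 to -0.15 and -0.26 to 0.010.

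The log2 difference of the Tnfsf11 to Tnfrsf11b ratio was -0.018 at 6 hrs without the third day, which is the replicate 4 pair alone. At 6 hrs it was -0.41 with 1419083_at and 1418309_at, -2.07 with 1451944_a_at and 1449033_at and -2.30 with 1451944_a_at and 1418309_at. The last 2 combinations gave -1.19 and -1.04 at 24 hrs and -1.63 and -1.67 over both times. With 1 array left out it ranged over -0.50 to 0.060 at 6 hrs, -0.85 to -0.11 at 24 hrs and -0.51 to -0.14 over both. Subtracting each array's median cancels in the ratio and was not run for it.

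Counts of probe sets called were 47 (6 hrs), 60 (24 hrs) and, combining the times, 156. They were 189, 449 and 668 with the pairs as a block, 198, 455 and 600 with the day, 18, 22 and 73 without the filter, and 0, 0 and 38 by a Welch test, the kind of test in the methods but run here on the 20897 expressed probe sets for each comparison with an adjusted p under 0.05, so its filter and threshold differ from theirs (473, 1716 and 807 at an unadjusted p under 0.05). Fits of only the arrays compared called 0 at 6 hrs (467 unadjusted) and 163 at 24 hrs, the last also the count without the third day, and arrays of the third day alone called 2 at 6 hrs. With 1 array left out they were 18 to 38, 16 to 88 and 90 to 156. Only 2 days held 4 arrays, so within-day fits were made for those. Limits: 3 arrays a group, 1 dim probe set each for Tnfsf11 and Tnfrsf11a, and the third day, whose Gapdh control differed. The cause of these changes was not tested.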
